A study of Nicotiana tabacum with 9 samples.

Results

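A list of peaks from a DNA affinity purification sequencing (DAP-seq) study of tobacco names no protein, yet marks part of its regions as lying in a gene or a promoter. It stands in the same form in the raw workbooks of both proteins studied. Its members were the 517 regions on sequences whose name starts with NW_, the nuclear scaffolds, out of 618 regions in the list. The other 101 lay on the plastid and mitochondrial sequences. The deposited lists of the AmMIXTA and NtZFP8 peaks, of 29197 and 20957 regions, served for comparison.

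DAP-seq fixes a tagged transcription factor, translated in vitro, to beads, adds sheared genomic DNA, washes, and reads out the retained fragments by sequencing. The groups were HALO-tagged AmMIXTA, an R2R3-MYB factor of snapdragon, HALO-tagged NtZFP8, a tobacco C2H2 zinc finger protein, and a HALO-tagged nuclear GFP as the negative control, with 3 replicates each. The proteins came from wheat germ extract, and all 9 samples used leaf primordia DNA of wild-type Nicotiana tabacum, cultivar Petit Havana (SR1), each protein replicate meeting 1 replicate of DNA. This DNA carries no chromatin, so binding was measured to naked DNA outside the cell. Each peak has 1 peak shape score, the authors' own value without a unit, and no value per replicate. No spread between replicates can therefore be given, the depth is unknown, and intervals over regions cover counting error only.

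Transcription factors act largely through DNA upstream of a gene, the promoter, though they also bind within genes and far from them. Genes for transfer RNAs (tRNAs), the adaptors that bring amino acids to the ribosome, are short, are transcribed by RNA polymerase III and carry promoter elements inside the transcribed stretch. Tobacco has a large genome, rich in repeats, that joins the genomes of a pair of ancestral species.

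The promoter and gene notes placed 257 of the 517 regions (49.7%, 95% Wilson interval 45.4 to 54.0), and 260 (50.3%) had no note. A gene note stood beside 183 regions (35.4%, 31.4 to 39.6), all at a distance of 0 bp. Of these, 170 carried it in the 5′ columns and 13 in the 3′ columns. A distance of 0 bp marks contact with the gene, so a region with this note need not lie wholly inside it. A promoter note stood beside 60 regions (11.6%, 9.12 to 14.7). Among these, 7 were called early promoter, at 19 to 340 bp, and 53 promoter, at 588 to 2948 bp, by the 5′ distance. A further 14 regions (2.71%) were noted only as lying after a gene, at 37 to 985 bp by the 3′ distance. The notes followed the distances without exception: classes rebuilt from a distance of 0, a 5′ distance of up to 3000 bp and a 3′ distance of up to 1000 bp differed for 0 regions. The nearest region without a note lay 3112 bp away by the 5′ distance, beyond the last promoter at 2948 bp, and 1107 bp away by the 3′ distance. No strand stands in the list, so these distances were taken as the notes use them.

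A total of 4 regions had a note on each side. The region in LOC107781137 (NW_015907147.1, 60664 to 60851, score 2.87) also lay 629 bp after the phenylalanine tRNA gene TRNAF-GAA_30, and was counted with the gene class. The others were counted with the promoters. Of these, the region at 1641 to 1881 of NW_015888032.1 (score 2.85) lay 340 bp before the serine tRNA gene TRNAS-GCU_18 and 6 bp after the arginine tRNA gene TRNAR-ACG_13.

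Promoter regions had a median score of 2.81 (95% interval of the median 2.45 to 3.15), gene regions 2.57 (2.32 to 2.86), regions after a gene 2.71 (2.06 to 4.70) and regions without a note 2.29 (2.14 to 2.44). Without tRNA genes the medians were 2.60 for promoter (n = 40), 2.59 for gene (n = 160) and 2.29 for after-gene regions (n = 7). The higher promoter median was thus not seen among LOC genes alone. The classes overlapped over most of their range, as the plot of score by class shows. The lowest score lay between 1.65 and 1.68 in each class, while the highest was 7.32 among promoters, 10.5 among gene regions, 7.39 after a gene and 9.33 without a note. The list's lowest score, 1.65, stands where its p-value nears 0.05, so the shared lower end is no comparison of classes. A score above 2, the authors' criterion, was reached by 368 of the 517 regions (71.2%). By class these were 50 of 60 promoter regions (83.3%, 72.0 to 90.7), 135 of 183 gene regions (73.8%, 67.0 to 79.6), 12 of 14 regions after a gene (85.7%, 60.1 to 96.0) and 171 of 260 without a note (65.8%, 59.8 to 71.3). The share was higher among promoter regions than among those without a note by 17.6 percentage points (95% Newcombe interval 4.94 to 27.0). Between promoter and gene regions the difference was 9.56 points (-3.21 to 19.6), and between gene regions and those without a note 8.0 points (-0.756 to 16.3), so that neither interval left out 0. Of 22 such differences of shares computed between classes of the list, 2 had an interval that left out 0, and no interval was adjusted for their number.

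**Figure D1:**
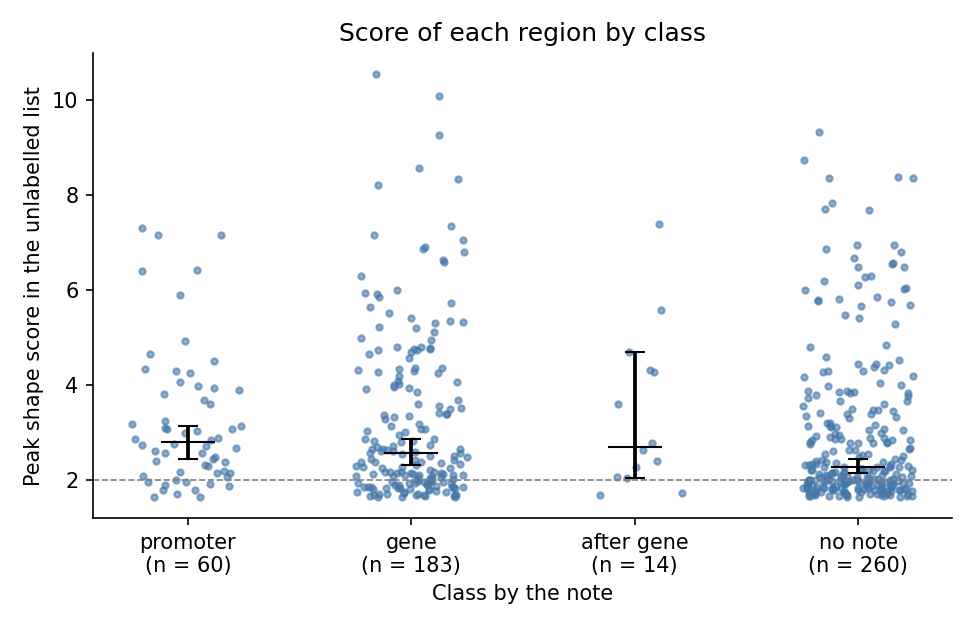
Peak shape score of every nuclear region (vertical axis, no unit) by class (horizontal axis); points are regions, wide bars the medians with their 95% intervals, and the dashed line the criterion of 2. The medians lie between 2.29 without a note and 2.81 in promoters, and each class spreads over most of the same range.

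The highest promoter region of the list lay 1783 bp from the gene for calcineurin B-like protein 3 (LOC107819027, NW_015820924.1, 5988 to 6196, score 7.32). Proteins of this family sense calcium and pass the signal to a family of protein kinases. It was overlapped by an AmMIXTA peak of score 21.2 and an NtZFP8 peak of 15.6, with centres 22 and 24 bp from its own. Next came a region 631 bp from a gene for the serine/threonine-protein kinase EDR1-like (LOC107799674, NW_015931502.1, 24919 to 25122, score 7.17). EDR1 of Arabidopsis restrains defence responses. The overlapping peaks there scored 17.1 for AmMIXTA and 15.3 for NtZFP8. These high promoter regions of named genes thus sat on high peaks of both proteins.

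LOC107782789, a gene without a description in the files, had a region 2001 bp away (score 7.16), on an AmMIXTA peak of 11.3 and an NtZFP8 peak of 12.5. LOC107810829, also without one, had the most distant promoter region, at 2948 bp (5.89), on peaks of 18.4 and 14.2. LOC107792037 led the early promoters, with a region at 47 bp (4.52) on peaks of 6.92 and 7.09. These regions were named for their scores, and their distances ran from 47 to 2948 bp.

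Described genes followed lower down. The gene for type I inositol polyphosphate 5-phosphatase 8-like (LOC107803457), of a family that removes a phosphate from inositol signalling molecules, had 2 promoter regions, at 1494 bp (4.93) and 2150 bp (3.99). The AmMIXTA peaks on them scored 3.46 and 5.26 and the NtZFP8 peaks 4.51 and 4.85. The nearer region was 1 of 5 in the whole list whose list score stood above the peaks of both proteins lying on it. A region 2169 bp from lysine-rich arabinogalactan protein 18-like (LOC107779301), of a family of cell surface glycoproteins, scored 4.67, on peaks of 7.72 and 8.19. A region 692 bp from tryptophan aminotransferase-related protein 2-like (LOC107767293) scored 4.34, on peaks of 10.97 for AmMIXTA and 7.44 for NtZFP8. In Arabidopsis an enzyme of this name takes part in auxin synthesis from tryptophan.

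tRNA genes made up 20 of the 60 promoter regions. The highest was 737 bp from the methionine tRNA gene TRNAM-CAU_39 (NW_015885725.1, 1350 to 1571, score 6.43), on an AmMIXTA peak of 10.7 and an NtZFP8 peak of 12.7. The glutamine tRNA gene TRNAQ-UUG_7 had 3 regions on NW_015839771.1. Its promoter region at 997 bp scored 6.41, on peaks of 15.8 and 16.1 whose centres lay 125 and 145 bp away. Another at 2452 bp (4.06) overlapped an NtZFP8 peak of 8.77 and no AmMIXTA peak. The one with a gene note (2.57) shared 38 bp with an AmMIXTA peak and 111 bp with an NtZFP8 peak.

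**Figure D2:**
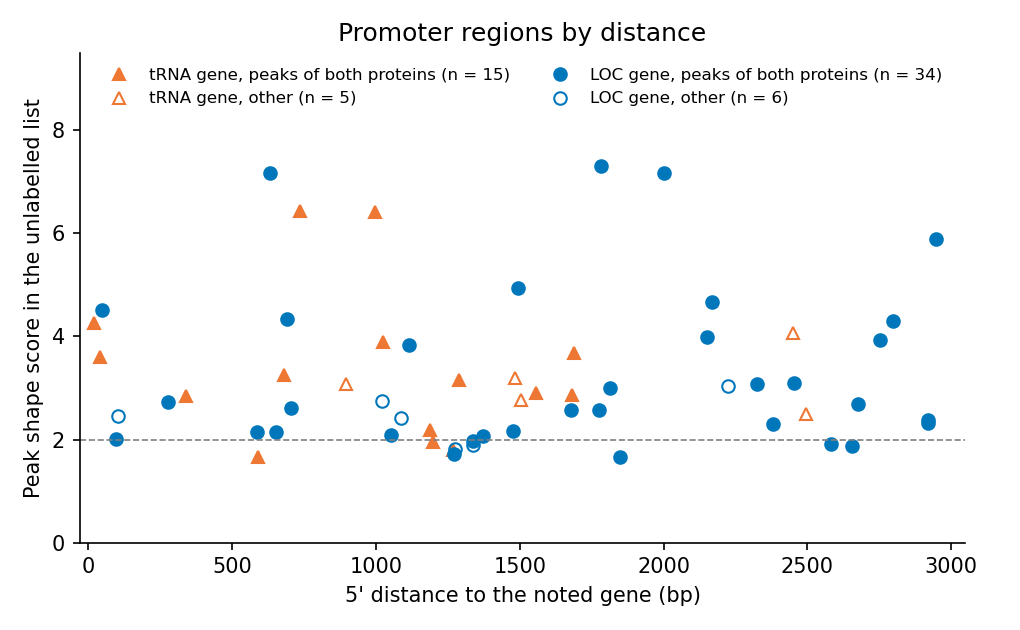
Score of the 60 promoter regions (vertical axis, no unit) against the 5′ distance to the noted gene in bp (horizontal axis); triangles are tRNA genes, circles LOC genes, and filled symbols regions on peaks of both proteins. Scores above 6 stand at distances from 631 to 2001 bp, and the open symbols, 11 in all, stand at scores of 4.06 or less.

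Binned by distance, promoter regions up to 500 bp had a median score of 2.85 (n = 7), those from 500 to 1000 bp 3.17 (n = 10), from 1000 to 2000 bp 2.58 (n = 26) and from 2000 to 3000 bp 3.08 (n = 17). The order of these medians did not follow distance. Their 95% intervals were 2.02 to 4.52, 2.15 to 6.43, 2.07 to 3.00 and 2.39 to 4.06, and overlapped, so the order cannot be told. Peaks of both proteins overlapped 6 of 7, 9 of 10, 20 of 26 and 14 of 17 of the regions in these bins.

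The pair of highest scores of the list belonged to gene regions, in LOC107799677 (NW_015931517.1, 1054 to 1280) with 10.5 and in LOC107824098 (NW_015836367.1, 34507 to 34716) with 10.1. The next was an unnoted region with 9.33, and 4 further unnoted regions, of 8.36 to 8.73, stood among the gene regions that followed. LOC107798852 had 9.27. LOC107830054 had 8.58, LOC107767183 8.34 and LOC107759217 8.22. None of these noted genes has a description in the files. AmMIXTA and NtZFP8 scored 25.5 and 25.5 at LOC107799677, 23.3 and 21.7 at LOC107824098, and 20.2 and 20.4 at LOC107759217. At LOC107799677 and LOC107824098 the centres of both protein peaks lay within 26 bp of that of the list region. LOC107808503 was unlike them: its region scored 3.85 in the list but lay on peaks of 20.8 and 18.8.

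Among described genes, la-related protein 1A-like (LOC107770309, NW_015890401.1, 3657 to 3851), of a family of RNA-binding proteins, had the highest gene region, at 6.91. It lay on an NtZFP8 peak of 10.2 and on no AmMIXTA peak, the nearest AmMIXTA centre being 338 bp away. The gene itself is not without AmMIXTA: the deposited gene tables give it peaks of 17.2 for AmMIXTA and 15.6 for NtZFP8. Replication protein A 70 kDa DNA-binding subunit A-like (LOC107807453), of the complex that covers single-stranded DNA, had 4.35, on peaks of 17.6 and 13.5. Ubiquitin-like protein 5 (LOC107827444) had 4.79, on peaks of 10.7 and 12.5. Rhomboid-like protein 11 (LOC107828226), of a family of membrane proteases and described as chloroplastic, had 4.76, on peaks of 15.7 and 13.3, and another region of 1.90 on an NtZFP8 peak of 2.41 alone. Among described genes outside the word lists, nudix hydrolase 16, mitochondrial-like (LOC107813941) had 6.801 on peaks of 15.4 and 10.8, and isoleucine N-monooxygenase 1-like (LOC107809681) had 5.22 on peaks of 16.5 and 13.6. Probable arabinosyltransferase ARAD1 (LOC107770982), of a family that builds pectic side chains, had 3.95 on peaks of 8.97 and 7.71. These last 3 were named after their values were seen.

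Lower in the gene class stood 26S protease regulatory subunit 6B homolog (LOC107809414), an ATPase of the proteasome, with 3.51 on peaks of 5.77 and 6.86. Plastidic ATP/ADP-transporter-like (LOC107792921), which exchanges these nucleotides across the plastid envelope, had 3.19 on peaks of 6.22 and 5.98. Glutamate receptor 2.8-like (LOC107779105), of a family of cation channels, had 3.42 on peaks of 4.22 and 6.05. UDP-glycosyltransferase 71K1-like (LOC107796811), of a family that joins sugars to small molecules, had only 2.14 in the list but peaks of 17.3 and 9.58. The gene for a cytokinin-activating enzyme of the LOG family, LOG8-like (LOC107784101), had 1.71, under the criterion, on an NtZFP8 peak of 3.07 and no AmMIXTA peak. The deposited gene table of AmMIXTA gives that gene a peak of 1.72.

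The gene class was also set out by the side of the note. Regions with the note in the 3′ columns had a median score of 4.30 (2.57 to 5.52, n = 13), and those with it in the 5′ columns 2.50 (2.27 to 2.75, n = 170). The intervals of these medians overlapped, and the difference was not tested. Genes in the deposited gene tables held 8 of the 13 and 35 of the 170 regions. All 13 of the 3′ regions lay on an NtZFP8 peak and 11 on an AmMIXTA peak, while 162 and 154 of the 170 did so on the 5′ side.

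Regions after a gene were few, and 7 of the 14 belonged to tRNA genes. The highest, 272 bp after TRNAM-CAU_3 (NW_015790281.1, 562 to 789, score 7.39), lay on an AmMIXTA peak of 16.6 and on no NtZFP8 peak, with an NtZFP8 centre 335 bp away. The cysteine tRNA gene TRNAC-ACA_1 was followed by 3 regions at 37, 676 and 985 bp, with scores of 4.70, 2.08 and 4.31. The nearest overlapped a peak of NtZFP8, the middle one a peak of AmMIXTA and the most distant peaks of both, at 13.4 and 13.9. Described LOC genes here included a cytochrome b6 gene (LOC107769160, 2.64), a part of the photosynthetic electron transport chain that plastids encode, and the kinase STY46-like (LOC107832665, 2.29, on peaks of 7.42 and 4.07).

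At an overlap of 1 bp or more, most regions of each class lay on peaks of both proteins. Where the overlap had to cover 50% of each interval, AmMIXTA peaks lay on 49.2% of unnoted and 42.9% of after-gene regions. A region wholly inside a much longer peak fails that rule. At an overlap of 1 bp or more and any listed score, an AmMIXTA peak lay on 452 of the 517 regions (87.4%) and an NtZFP8 peak on 487 (94.2%). Among promoter regions AmMIXTA reached 50 (83.3%, 72.0 to 90.7) and NtZFP8 55 (91.7%, 81.9 to 96.4). Among gene regions the counts were 165 (90.2%, 85.0 to 93.7) and 175 (95.6%, 91.6 to 97.8), and among regions without a note 225 (86.5%, 81.9 to 90.2) and 245 (94.2%, 90.7 to 96.5). After a gene the counts were 12 of 14 (85.7%, 60.1 to 96.0) for each protein. After-gene minus gene regions gave -4.45 points for AmMIXTA (-30.3 to 7.06) and -9.91 points for NtZFP8 (-35.7 to 1.12). Promoter minus gene regions gave -6.83 points for AmMIXTA (-18.7 to 2.16) and -3.96 points for NtZFP8 (-13.9 to 2.24), and gene regions minus those without a note 3.63 points (-2.69 to 9.49) and 1.40 points (-3.20 to 5.53). Each of these intervals holds 0 and also differences of several points, so the shares were not shown to be alike. Both lists of peaks were called against the same GFP samples, so the shares of the 2 proteins are not independent of each other.

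**Figure D3:**
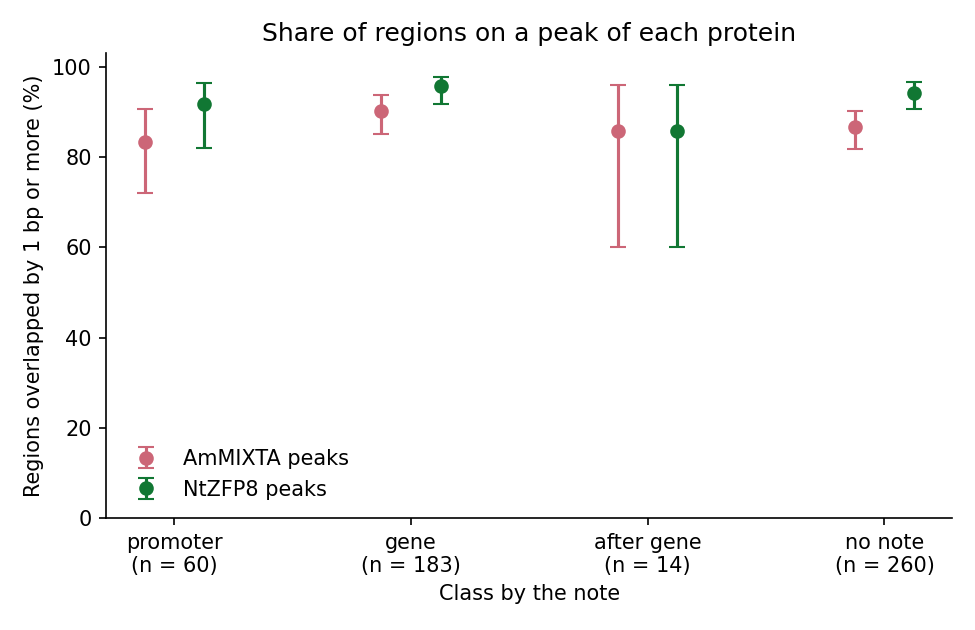
Percentage of regions overlapped by an AmMIXTA or NtZFP8 peak (vertical axis) in each class (horizontal axis); points are shares and bars 95% Wilson intervals. All shares lie between 83.3% and 95.6%, and the bars of each protein overlap between the classes.

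Peaks of both proteins met on 438 regions (84.7%), namely 49 of 60 promoter regions (81.7%, 70.1 to 89.4), 160 of 183 gene regions (87.4%, 81.8 to 91.5), 10 of 14 after a gene (71.4%, 45.4 to 88.3) and 219 of 260 without a note (84.2%, 79.3 to 88.2). The difference, after-gene minus gene regions, was -16.0 points (-42.4 to 1.75). NtZFP8 alone accounted for 49 regions and AmMIXTA alone for 14. Of the 49, 35 lay up to 1000 bp from the nearest AmMIXTA centre, and of the 14, 11 lay as near to an NtZFP8 centre. With peaks above a score of 2 only, 439 regions (84.9%) lay on an AmMIXTA peak and 481 (93.0%) on an NtZFP8 peak.

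A comparison with the 2 peak lists at large sets these shares in context. On the nuclear scaffolds, 94.2% of the list regions lay on an NtZFP8 peak, against 46.6% of 29189 AmMIXTA peaks, a difference of 47.6 points (45.2 to 49.4). Likewise 87.4% of the list regions lay on an AmMIXTA peak, against 65.9% of 20715 NtZFP8 peaks, a difference of 21.5 points (18.3 to 24.2). The sets were not matched by score: 8677 of these AmMIXTA and 5702 of these NtZFP8 peaks scored 2 or less. No share among peaks of like score was computed. Of the list regions, 0 shared both ends with a peak of either protein. They were also shorter, with a median length of 210 bp, against 387 bp for AmMIXTA and 287 bp for NtZFP8 peaks. Shared ends are unlikely at unlike lengths, so the count of 0 does not tell whether the same sites were called again. The AmMIXTA peak covered the whole region in 339 of 452 cases and the NtZFP8 peak in 320 of 487. Centres lay a median of 20 bp (quartiles 9 and 41) from that of the AmMIXTA peak and 14 bp (7 and 31) from that of the NtZFP8 peak.

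The peaks under the list were among the higher ones of each protein. AmMIXTA peaks on a list region had a median score of 6.82, against 2.44 for all nuclear AmMIXTA peaks, and NtZFP8 peaks 5.82, against 2.52. Of AmMIXTA peaks above 10, 129 of 916 (14.1%, 11.98 to 16.5) lay on the list, and 13 of 8677 at a score of 2 or less (0.150%, 0.0876 to 0.256). For NtZFP8 these were 94 of 877 (10.7%, 8.84 to 12.9) and 6 of 5702 (0.105%, 0.0482 to 0.229). By class, the median score of the highest AmMIXTA peak was 5.77 on promoter, 6.90 on gene and 6.89 on unnoted regions, and that of NtZFP8 was 5.69, 6.73 and 5.75. Where peaks of both met, that of AmMIXTA was the higher at 251 of 438 regions (57.3%), namely 22 of 49 promoter regions (44.9%), 94 of 160 gene regions (58.8%) and 129 of 219 unnoted regions (58.9%) among the larger classes. Among promoter regions the AmMIXTA peak was the higher at 3 of 15 of tRNA genes (20%) and 19 of 34 of LOC genes (55.9%). Among gene regions this held for 13 of 20 (65%) and 81 of 140 (57.9%). The lower promoter share was thus found among tRNA genes. The difference between promoter and gene regions in this count was not tested. Scores come from separately called lists, so these counts only set them side by side.

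Across regions the list score followed that of AmMIXTA with a Spearman rho of 0.42 (n = 452) and that of NtZFP8 with 0.61 (n = 487). Within promoter regions rho was 0.53 for AmMIXTA and 0.62 for NtZFP8, within gene regions 0.44 for AmMIXTA and 0.62 for NtZFP8, and without a note 0.38 for AmMIXTA and 0.60 for NtZFP8. These are descriptions over regions of the same genome, which share local sequence, may share control samples and are not independent. The protein peak had the higher score at 428 of 452 regions for AmMIXTA and at 468 of 487 for NtZFP8.

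**Figure D4:**
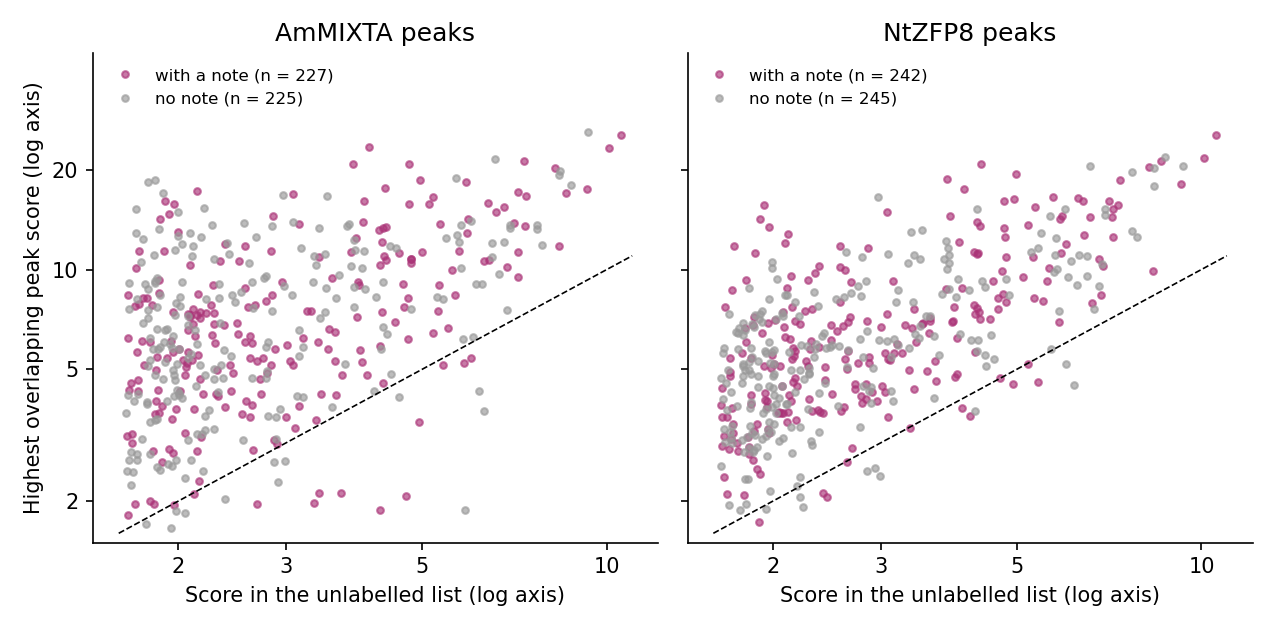
Score of the highest overlapping AmMIXTA (left) or NtZFP8 (right) peak (vertical axis, log scale) against the score in the unlabelled list (horizontal axis, log scale), 1 point per region; the dashed line marks equal scores. Most points lie above the line in both panels, 428 of 452 for AmMIXTA and 468 of 487 for NtZFP8, with or without a note.

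Peaks of neither protein touched 16 regions, of which 13 were above a score of 2. The highest had no note: it lay at 27939 to 28164 of NW_015903295.1 with a score of 8.36, 5079 bp by the 5′ distance from LOC107777705. Even there an AmMIXTA centre stood 355 bp and an NtZFP8 centre 394 bp away. The 7 with a note were 4 promoter regions (TRNAN-GUU_16 at 3.19, TRNAT-GGU_3 at 2.77, LOC107812943 at 2.74, LOC107795990 at 2.45) and 3 gene regions (LOC107769159 at 2.39, TRNAK-UUU_17 at 2.00, LOC107768595 at 1.92). All were named because neither protein had a peak there, after their values were seen.

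Some genes drew several regions. The 257 noted regions belonged to 215 genes, 30 of which had more than 1 noted region and 7 of which had regions in more than 1 class. LOC107795990, described as uncharacterized, had 7 regions within 5568 bp (centre to centre) of NW_015926101.1, 4 in the gene and 3 before it at 104, 704 and 1477 bp. All 4 with a gene note lay on NtZFP8 peaks alone, with scores of 2.67 to 3.90. The regions at 704 and 1477 bp lay on peaks of both proteins, at 6.32 and 7.42 for AmMIXTA and 3.85 and 5.69 for NtZFP8, and the one at 104 bp on none. LOC107807022 had 4 regions with a gene note, all on peaks of both, with list scores of 1.98, 5.21, 5.91 and 2.16. Its AmMIXTA peaks scored 3.79, 6.44, 12.9 and 8.46 in the same order, and its NtZFP8 peaks 5.04, 5.17, 11.2 and 5.79. Over the whole list, 391 scaffolds held the 517 regions, and 29 of them held 3 or more, with 109 regions in all.

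tRNA genes accounted for 50 noted regions at 38 genes, 20 counted as promoter, 23 with a gene note and 7 after genes. Their median score was 2.88 (2.57 to 3.60), against 2.57 (2.32 to 2.84) for the 207 regions of LOC genes. Methionine tRNA genes with the anticodon CAU were the most frequent, with 9 regions at 6 genes and scores of 1.67 to 7.39. Asparagine (GUU) and tryptophan (CCA) tRNA genes had 5 regions each. The annotated tRNA genes, in all or of each kind, were not counted here, so these counts are no measure of enrichment. An NtZFP8 peak lay on 44 of the 50 tRNA regions (88.0%) and on 198 of the 207 LOC regions (95.7%), a difference of -7.65 points (-19.6 to -0.271). For AmMIXTA the counts were 42 (84.0%) and 185 (89.4%), a difference of -5.37 points (-18.4 to 3.74). Copies of a tRNA gene share sequence, and the sources used here do not say how reads were assigned among them. The gene note can also span more than a short gene. TRNAM-CAU_28 had 3 regions with this note, whose centres spanned 6363 bp of NW_015840316.1. What the notes take as the extent of a tRNA gene is not given.

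The gene tables deposited for AmMIXTA and NtZFP8 give genes to part of their peaks, and were set against the notes. No tRNA gene stands in them, and of the 177 noted LOC genes, 53 (29.9%) do. A peak under a noted region was given to a gene in 61 of 257 cases (23.7%), and in 57 of these to the gene the note names. The other 4 named a different gene, such as LOC107803124 for the region noted in LOC107803125 (4.95, on peaks of 18.6 and 16.3). Under regions without a note, a peak was given to a gene in 3 of 260 cases (1.15%, 0.393 to 3.34). In each of the 3 the gene was the neighbour the list names, at a 3′ distance of 1107 to 2058 bp. The highest region without a note was one of them: on NW_015806601.1, 104025 to 104221, it scored 9.33 and lay 1608 bp by the 3′ distance from LOC107813663, described as ras-related protein RABB1c-like. RAB GTPases direct vesicle traffic. The peaks there scored 25.9 for AmMIXTA and 20.6 for NtZFP8. Regions without a note lie beyond the note distances by definition, a median of 13192 bp from the nearest listed gene. Their share of 1.15% is therefore not independent of how the class was made.

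Genes missing from both tables lay on peaks too. Of 141 regions of LOC genes in neither table, 127 (90.1%) were on peaks of both proteins, and of 66 regions of LOC genes in a table, 53 (80.3%) were. The difference, tables minus neither, was -9.77 points (-21.6 to 0.109). Since the tables were made from these peaks, the share among their genes is no independent measure.

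Descriptions come from those tables, so that 53 of the 177 LOC genes have one, and 19 of the 53 are described as uncharacterized in some form. Kinases, phosphatases and receptors formed the largest other group by fixed words, with 8 genes and 9 regions, 4 of them in promoters. All 9 lay on peaks of both proteins, as did 53 of the 66 regions of all described genes (80.3%). Besides EDR1-like, STY46-like, the inositol phosphatase and the glutamate receptor, they were 3 protein phosphatases and adenylate kinase 4-like (LOC107809513), an enzyme of nucleotide metabolism, with 1.68 on peaks of 2.99 and 3.59. Protein phosphatase 2C 70-like (LOC107790556) had a promoter region at 652 bp, with 2.15 on peaks of 7.27 and 7.71. Probable protein phosphatase 2C 58 (LOC107830771) had a gene region of 2.08 on peaks of 6.56 and 7.42, and the phosphatase PP1 isozyme 2-like (LOC107770342) one of 2.11 on peaks of 5.34 and 3.47. The group held both the second highest promoter region of the list and several near the criterion of 2. Words for the chloroplast matched 4 genes and 6 regions, all on NtZFP8 peaks and 5 on peaks of both. Besides rhomboid-like protein 11 these were threonine synthase (LOC107803812), an enzyme of amino acid synthesis with a region at 2654 bp (1.88), and anthranilate phosphoribosyltransferase (LOC107830591), of tryptophan synthesis, with one 442 bp after the gene (2.06). ATP synthase subunit 9, mitochondrial (LOC107786393), was caught by the same words and had promoter regions at 1372 bp (2.07) and 1847 bp (1.65).

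Ubiquitin and proteolysis words matched 2 genes, while hormone, transport, chromatin and isoprenoid or phenolic words matched 1 each, as given above. Words for trichome and epidermis, for transcription regulators, for cell wall and lipids, and for RNA and translation matched 0 of the 53 genes. These counts are of words, not of functions, and set no limit on a function's share. Genes described in other words include arabinogalactan protein 18-like, ARAD1 and mannan endo-1,4-beta-mannosidase 6-like (LOC107822146, 1.72) for the cell wall, la-related protein 1A-like for RNA and tryptophan aminotransferase-related protein 2-like for hormones.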

How the data were processed

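Per the labels' protocols, sheared DNA was incubated with HALO-tagged AmMIXTA, NtZFP8 or GFP, 3 replicates each. The authors mapped reads to the tobacco genome of Sierro and colleagues and kept hits against GFP by score (over 2) and p-value (under 0.05), per the series' design text. Not given in the sources used here are the aligner, the caller, the pooling of replicates, and the protein and control of the unlabelled list. Each deposited list holds 1 peak shape score per peak, with no value per sample, so depth per sample is unknown. The p-value deposited in the unlabelled list was the one-sided normal tail of its score within 2.4e-16. Lists reach below the score criterion (lowest 1.65), and all listed peaks were used unless stated. Scores of NtZFP8 are written to 2 decimals with decimal commas.

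Coordinates are those of the deposited lists. Position 1 served as the start of regions that ran past it, and regions wrapped round a sequence end kept their first part. Overlaps of 1 bp or more, shares with 95% Wilson intervals, differences with 95% Newcombe intervals and medians with order-statistic intervals were computed in Python 3.11.15 (pandas 2.3.3, SciPy 1.17.1). The overlap and interval functions were tested on simulated regions. No p-value was computed, since regions are not replicates.

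Named regions were the 10 highest per noted class, up to 5 per class with the highest lower peak score, up to 4 on peaks of 1 protein only and up to 4 genes per word list. Not all are printed, and others are named beside a count. Members and lists were chosen with earlier results of these data known. RefSeq's gene table of assembly ASM71507v2 lists 133 of the 177 noted LOC genes (75.1%), and nothing else of it was used. Sequences and promoter motifs were not analysed here. A sheet with a new layout repeats the 207 noted regions of LOC genes in 208 lines and adds no value. Alternatives changed the overlap rule, the score limits, the set of regions and the classes.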

Additional observations from a re-analysis of the deposited data

How the results depend on the processing

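Of 148 alternative values, 121 stayed within the limits set for each, namely the interval of a share or median and 1.5 times a count. Small classes have wide intervals, so a fall that left the interval of a large class could stay within theirs. Classes by distance and distinct regions only, with 16 values each, could not move, since 0 regions changed class and 0 were duplicates. Those values are counted among the 121. Leaving out tRNA genes likewise could not move the values of unnoted regions. Peaks above 2 changed none of their 8 values. An overlap of at least 50% of each interval lowered the AmMIXTA shares to 56.7% of promoter, 60.1% of gene, 42.9% of after-gene and 49.2% of unnoted regions, and the NtZFP8 shares to 88.5% of gene and 88.5% of unnoted regions. The same rule gave NtZFP8 83.3% of promoter and 71.4% of after-gene regions, lower but within their intervals. This rule also asks for 50% of the peak, and AmMIXTA peaks had a median of 387 bp against 210 bp for list regions. A region wholly inside such a peak can therefore fail it. With the peak centre inside the region, AmMIXTA reached 83.6% of gene, 57.1% of after-gene and 80.0% of unnoted regions, and NtZFP8 90.7% of gene regions. On promoter regions that setting lowered AmMIXTA to 73.3% and NtZFP8 to 83.3%, within their intervals. Peaks above 3 gave 82.5% and 76.9% for AmMIXTA on gene and unnoted regions, and 88.0% and 85.0% for NtZFP8. They also lowered AmMIXTA on promoter regions to 73.3% and NtZFP8 on after-gene regions to 71.4%, within their intervals. List scores above their median gave 94.9% for AmMIXTA and 98.0% for NtZFP8 on gene regions, and the highest region of each scaffold 91.3% for AmMIXTA on unnoted ones.

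Chosen after seeing the data, the inclusion of plastid and mitochondrial regions gave 95 promoter regions, with 53.7% on AmMIXTA and 77.9% on NtZFP8 peaks, and gene regions with 69.3% and 85.7%. Leaving out tRNA genes gave 7 after-gene regions, all (100%) on NtZFP8 peaks. Leaving out scaffolds with 3 or more regions, or all but the highest of each, also gave 7, and a list score above 2 left 171 unnoted regions.

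No paired analysis was possible because the lists hold no value per replicate, and no replicate was left out for the same reason. Read counts behind each peak are unknown, so for a region on which no peak lay, the listed data set no upper limit on binding.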

Other observations

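The 101 plastid and mitochondrial regions of the list differed from the nuclear ones in the peaks they met. An AmMIXTA peak lay on 2 of them (1.98%, 95% Wilson interval 0.545 to 6.93), against 452 of 517 nuclear regions (87.4%). An NtZFP8 peak lay on 52 (51.5%, 41.9 to 61.0), against 487 nuclear regions (94.2%). The AmMIXTA peak had the same score, 12.8, at both of its regions. Few peaks were there to be met: 29189 of 29197 AmMIXTA and 20715 of 20957 NtZFP8 peaks lay on nuclear scaffolds. The AmMIXTA list has no peak at all on the sequence that holds 45 of the 101. Their median score in the list was 2.75, against 2.44 on the nuclear scaffolds.

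Unnoted regions were also binned by their distance to the nearest listed gene. Up to 5000 bp, 50 of 54 lay on peaks of both proteins (92.6%), with a median list score of 2.55. From 5000 to 10000 bp these were 42 of 53 (79.2%) and 2.50, from 10000 to 20000 bp 51 of 62 (82.3%) and 2.21, and beyond 20000 bp 76 of 91 (83.5%) and 2.21. The share on both did not fall steadily with distance, since it was lowest from 5000 to 10000 bp.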
